A study of Mus musculus with 6 samples.

Results

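The RNA of 41 genes of autophagy and mitophagy was examined in megakaryocyte-erythroid progenitors (MEP), the bone marrow cells from which the erythroid and platelet lineages descend. The 41 genes were chosen by symbol, by what their products do, out of the 55487 genes of the deposited table, and no measured value entered the rule. Earlier results of these data were known when the genes were chosen. The cells came from wild type C57BL/6 mice of 8 weeks, labelled control (3 libraries) or taken after a 6 h fast (fasted, 3 libraries), with RNA prepared by poly(A) selection and read as bulk RNA-seq. The study asked how fasting acts on erythropoiesis at the molecular level. The labels do not say whether a library is 1 mouse or a pool, nor the sex of the mice, so the p-values below measure only the spread between these libraries, which may be technical. The extraction text speaks of ground tissue and the other labels of sorted cells.

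Autophagy encloses cytoplasm in a double membrane, the autophagosome, and delivers it to the lysosome. A kinase complex built on ULK1 starts the process, a lipid kinase complex built on Beclin 1 marks the membrane with PI3P, ATG2 and ATG9 supply lipid, and a conjugation machinery attaches proteins of the ATG8 family to the growing membrane, where receptors bring in cargo. Mitophagy is the same route for mitochondria, and in the red cell lineage the receptor Bnip3l (NIX) is known for clearing mitochondria from maturing reticulocytes.

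Total counts ran from 12797144 to 30246110 per library, with every fasted library below every control library. Odorant and vomeronasal receptor genes, which blood progenitors are not known to use, gave a measure of background. Not scaled for depth, they had 8.99 to 14.7 counts per kilobase of exon in control libraries and 14.2 to 15.97 in fasted ones, with overlap. At that rate over all exons, the background share of a library's counts was 6.36% ± 2.35 in control and 13.1% ± 1.55 in fasted libraries (SD, n = 3 each). These shares did not overlap, at 3.90% to 8.60% in control and 11.5% to 14.6% in fasted libraries. Tests were therefore run on the 10635 genes whose mean count was at least 5 times the background, and the fit of all 36508 genes that passed edgeR's filter on low counts is given beside them. Of 8 genes that define megakaryocyte-erythroid progenitors 7 were at least 5 times above background, with Zfpm1 below. The 12 granulocyte and monocyte markers were all above it, and their summed level was 3832, 12230 and 18593 CPM (counts scaled to a common library size) in the control libraries and 4591, 2982 and 1683 in the fasted ones, while the defining genes summed to 1167 to 2616 CPM over all 6 libraries. No marker of the 7 lists had a count of 0 in any library, but 94.6% to 98.0% of the receptor genes also had a count in each. A count above 0 therefore does not show that a cell type was present. Of the macrophage markers 2 of 8 were at least 5 times above background, and of the B and T lymphocyte markers 4 of 9. In bulk RNA, fewer cells of a type and less RNA per cell cannot be told apart. The part of these other cells, of depth and of the background in the results below was not tested.

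No autophagy or mitophagy gene passed the test between fasted and control libraries. Of the 41 genes, 38 were at least 5 times above background and were tested: Rb1cc1 (4.45 times), Atg16l2 (4.68 times) and Tfeb (1.68 times) were not, and the nearest tested genes were Ulk2 (5.96 times) and Pik3r4 (6.28 times). By edgeR's quasi-likelihood test with Benjamini-Hochberg adjustment over all genes tested, 0 of the 38 had an adjusted p under 0.05, with the smallest at 0.131, against 0% of the 10635 genes. The estimates were higher in fasted libraries for 22 genes and lower for 16 (47.7% of all genes tested were lower), with a median log2 fold change of 0.07 beside 0.021 for all genes tested. At an unadjusted p under 0.05 there were 13 of the 38 genes, 7 higher and 6 lower, where 19.8% of all genes tested reached that p, 11.5% higher and 8.3% lower. The 3 control and 3 fasted CPM values, without background subtraction, did not overlap for 16 of the 38 genes, 10 with fasted above and 6 with fasted below. Over all genes tested 27.3% did not overlap, 14.4% with fasted above and 12.9% below. DESeq2 on the same 10635 genes called 3 of the 38 genes, Atg2a and Tfe3 higher and Atg3 lower, and 502 genes in all, while limma-voom called 0 of each.

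**Figure D1:**
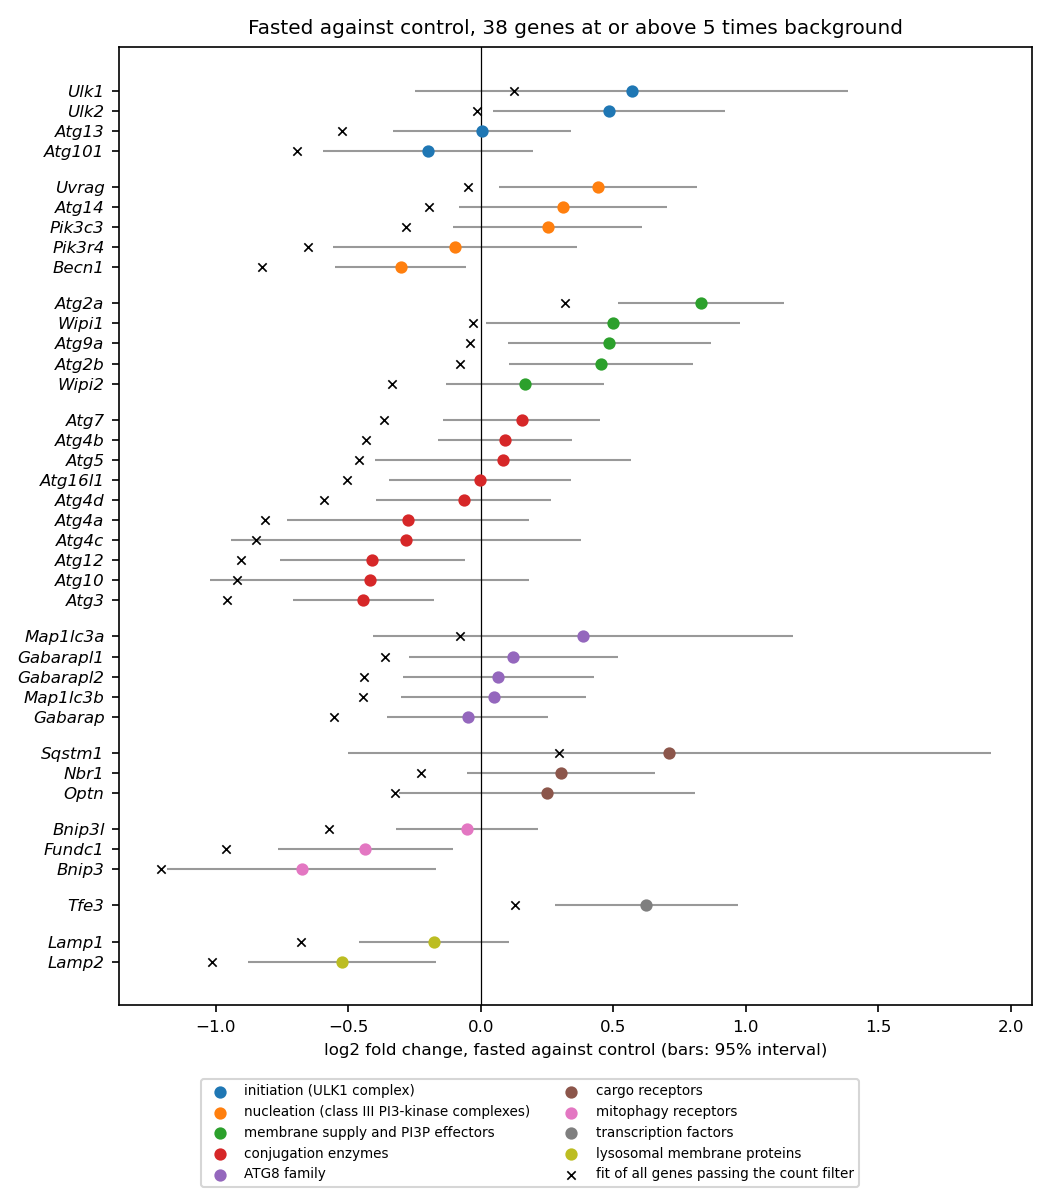
Log2 fold change (fasted against control, x axis) of the 38 tested genes, grouped by role, with 95% intervals from the fit of genes at least 5 times above background; crosses give the same genes in the fit of all genes that passed the count filter. Every cross lies to the left of its point, and 13 of the 38 intervals lie clear of 0, although no gene passed the adjusted test.

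Where 0 lies depended on which genes set the scale. In the fit of all 36508 genes the median log2 fold change of the genes at least 5 times above background was -0.50, against 0.53 for the 25873 genes below that level, and the median shift of the 10635 genes against the restricted fit was -0.52. That fit called 6 of the 41 genes, all lower in fasted libraries: Atg3, Atg12, Becn1, Bnip3, Fundc1 and Lamp2. Over all its genes it called 4.97%, 1.15% higher and 3.82% lower. It called 12.9% of the 10635 genes lower and 0.0752% higher, so most calls at this level of expression ran in that direction. The 6 calls depended on single libraries, as did the calls over all 36508 genes. With control library 2, fasted library 1 or fasted library 3 left out, the fit of all genes called 0 of the 41. Over all genes it then called 191, 148 and 1. With control library 1 left out it called 6 of the 41 and 1299 genes in all. Leaving out fasted library 2 gave 8 and 2074, and leaving out control library 3 gave 12 and 5409. A value that moved less with the scale is a gene's log2 fold change minus the median of the genes at least 5 times above background. It was 0.81 for Atg2a in the restricted fit and 0.82 in the other, and -0.70 and -0.71 for Bnip3. For some genes it still moved, as for Sqstm1, at 0.69 and 0.80.

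**Figure D2:**
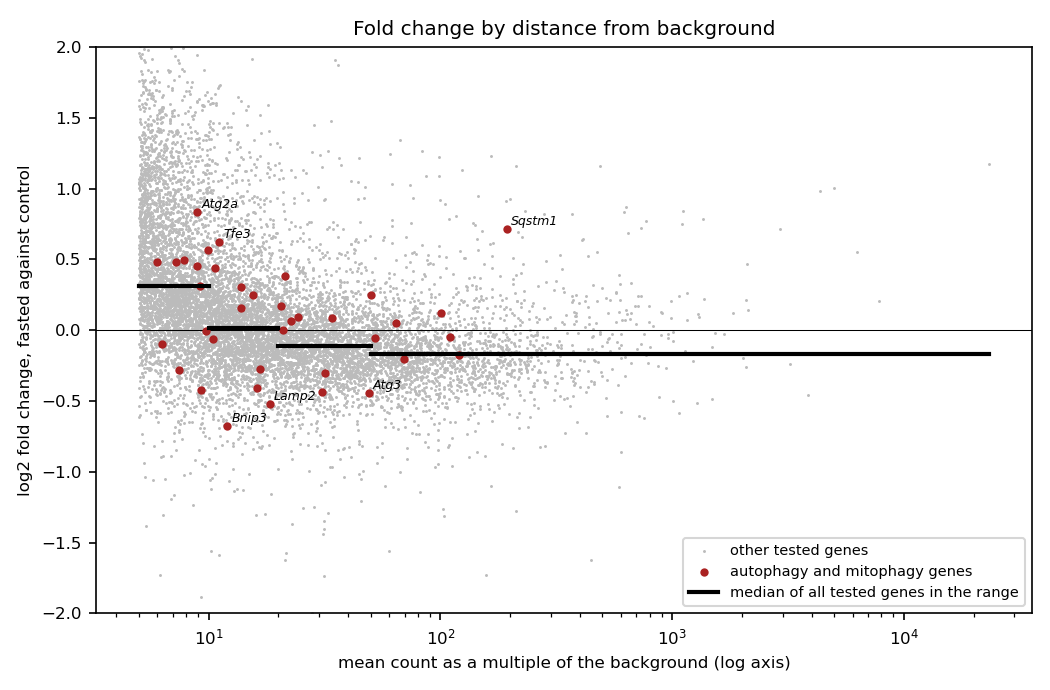
Log2 fold change (fasted against control) of the tested genes against their mean count as a multiple of the background, on a log axis; red points are the autophagy and mitophagy genes, black lines the median of all tested genes within each range, and 54 genes beyond 2 in either direction are not drawn. The median falls from 0.32 at 5 to 10 times background to -0.17 above 50 times, and Sqstm1 stands far above it.

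The fold change also ran with the distance from background. The 3708 genes at 5 to 10 times background had a median log2 fold change of 0.32, and 0.26 after the background was subtracted. Of these 3708 genes 79.3% had estimates above 0. The 11 autophagy genes in that range had a median of 0.46, with 7 of the 11 above 0. Those above were Atg2a, Atg2b, Atg9a, Wipi1, Ulk1, Ulk2 and Atg14, and those below Pik3r4, Atg4c, Atg10 and Atg16l1. Between 10 and 20 times background all genes had a median of 0.017 and the autophagy genes 0.04. From 20 to 50 times the medians were -0.11 and 0.07, and above 50 times they were -0.17 and -0.00057.

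Levels were compared between genes as background-subtracted CPM per kilobase of exon. On that scale Sqstm1, the receptor p62 that brings ubiquitin-tagged cargo to autophagosomes, had the highest level of the 41 genes, with a mean of 153 over the 6 libraries. Lamp1, a heavily glycosylated protein of the lysosomal membrane, followed at 86.3, Gabarap at 79.0 and Gabarapl1 at 73.7. There were 17 genes between 10 and 50, among them Map1lc3b at 46.6, Bnip3l at 37.2 and Optn at 35.8, and 20 below 10. Atg16l2 at 2.69, Rb1cc1 at 2.65 and Tfeb at 0.523 were lowest. For 39 of the 40 neighbouring pairs in this order the ranges over the 6 libraries overlapped, so the order sorts the genes coarsely and not one by one. Exonic length here is that of all annotated exons merged, which lowers the level of genes with long alternative exons such as Map1lc3b, with 7517 bases.

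**Figure D3:**
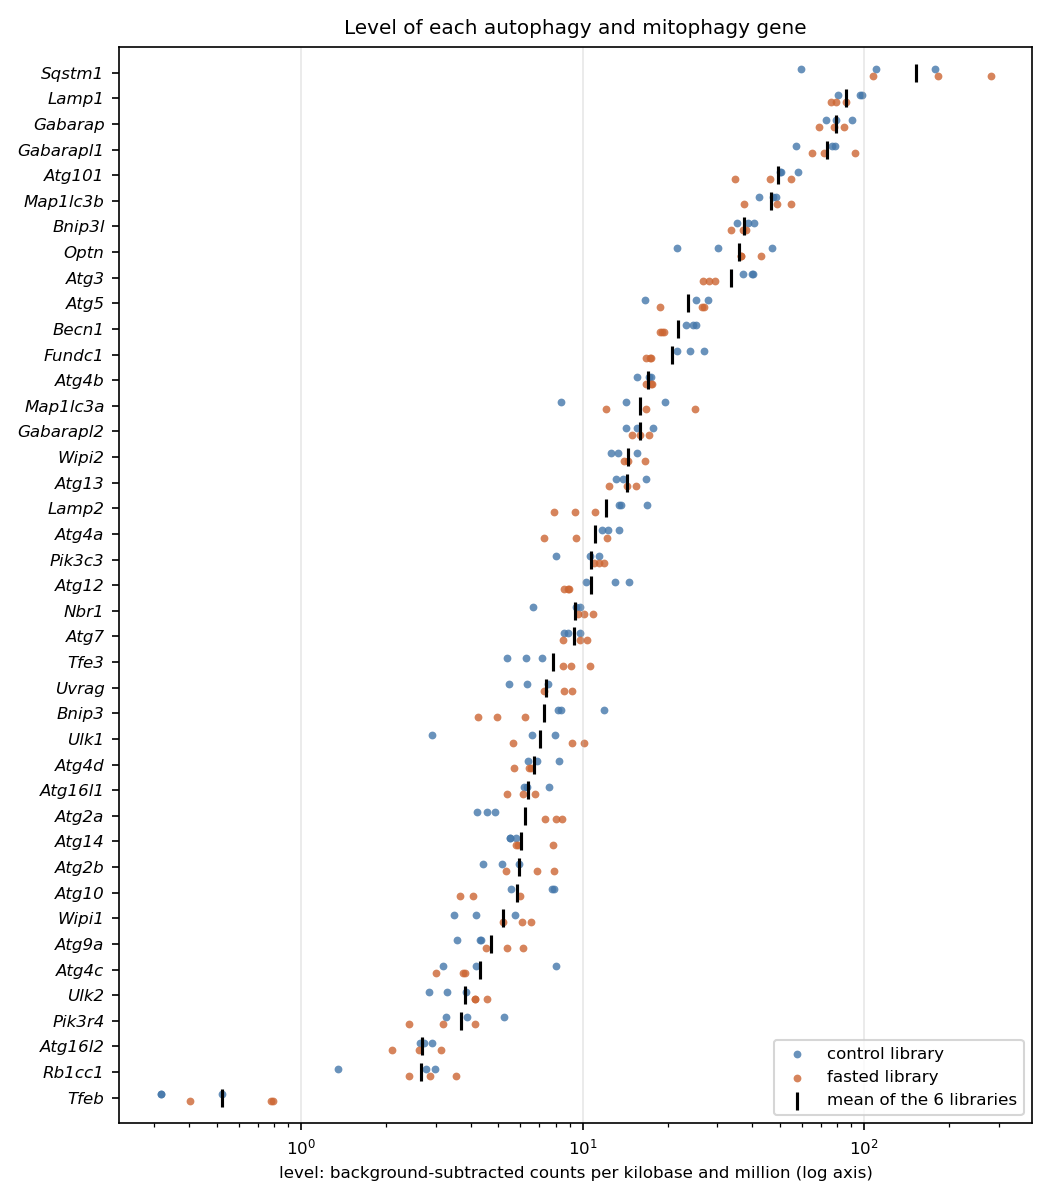
Level of each of the 41 genes in each library (background-subtracted CPM per kilobase of exon, log axis), with the mean of the 6 libraries as a bar. Levels run from 0.523 for Tfeb to 153 for Sqstm1, and blue (control) and orange (fasted) points separate fully for some genes, Atg2a, Atg3 and Bnip3 among them.

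Of the ULK1 complex, which starts autophagy when nutrients are short, 4 of 5 genes were tested (Rb1cc1, the scaffold FIP200, was not), with 3 estimates higher in fasted libraries and 1 lower. Ulk1, the kinase itself, averaged 41.2 ± 18.3 CPM in control and 61.1 ± 15.0 CPM in fasted libraries (SD, n = 3 each), and the groups overlapped. Its log2 fold change was 0.57 with a 95% interval from -0.25 to 1.39. Ulk2, its paralog, did not overlap between the groups, at 19.0, 23.1 and 27.4 CPM against 34.8, 30.9 and 31.4 CPM, and was at 0.48 (unadjusted p = 0.0343, edgeR adjusted p = 0.226). Atg13 and Atg101, the adaptors of the complex, were at 0.0044 and -0.20.

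The class III PI3-kinase complexes lay on both sides of 0. Becn1, the scaffold Beclin 1, had 181, 168 and 179 CPM in control and 143, 139.6 and 145 CPM in fasted libraries. Each fasted value was below each control value, with a log2 fold change of -0.30 (SE 0.11, edgeR adjusted p = 0.196) and of -0.82 in the fit of all genes (adjusted p = 0.0421). Becn1 lies on the minus strand at chr11:101285952-101302286 (GRCm38), and 43.9% of its exonic length overlaps Cntd1 on the other strand, whose reads cannot be told apart here because strand use in counting is not given. Uvrag, the partner of Beclin 1 in the endosomal complex, was at 0.44, Atg14, the partner in the autophagosomal complex, at 0.31, the catalytic Pik3c3 at 0.25 and the regulatory Pik3r4 at -0.10.

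All 5 genes of membrane supply and PI3P binding had estimates above 0 in the restricted fit, 4 of them with an unadjusted p under 0.05. In the fit of all genes only Atg2a had an estimate above 0. Atg2a, Atg2b, Atg9a and Wipi1 lay at 5 to 10 times background, where 79.3% of all 3708 genes had estimates above 0. Atg2a encodes a lipid transfer protein that feeds the growing autophagosome, and lies on the plus strand at chr19:6241668-6262335. It had 37.5, 41.9 and 38.2 CPM in control and 66.0, 72.9 and 70.5 CPM in fasted libraries. The groups were far apart beside their spread, with means of 39.2 ± 2.38 and 69.8 ± 3.52 CPM (SD, n = 3 each). Atg2a was 1.78-fold higher in fasted libraries, a log2 fold change of 0.83 (SE 0.14, unadjusted p = 0.000187, edgeR adjusted p = 0.131), the largest of the 38 genes. The background made up 10.1% of its counts in control and 12.2% in fasted libraries. Its adjusted p was 0.000117 with DESeq2 and 0.350 in the fit of all genes, where its log2 fold change was 0.32.

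Atg2b, the paralog of Atg2a, had 84.4, 76.8 and 69.5 CPM in control and 88.5, 106 and 122 CPM in fasted libraries. The groups did not overlap in CPM, by a narrow margin. After background subtraction they did overlap, at 4.43 to 5.96 CPM per kilobase in control and 5.34 to 7.92 in fasted libraries. The estimate for Atg2b was 0.46 on the log2 scale (SE 0.15, edgeR adjusted p = 0.173). Atg9a encodes the lipid scramblase of the vesicles that seed the autophagosome. It had 26.8, 28.2 and 24.9 CPM in control and 33.2, 36.9 and 41.8 CPM in fasted libraries, a log2 fold change of 0.49 (SE 0.17, edgeR adjusted p = 0.183). All 3 fasted values of Atg9a were above the control values, and 31.8% of its exonic length overlaps Gm29253 on the same strand. Wipi1 and Wipi2, which read PI3P on the membrane, were at 0.50 and 0.17. In the fit of all genes Atg2b, Atg9a, Wipi1 and Wipi2 were at -0.08, -0.04, -0.03 and -0.34.

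**Figure D4:**
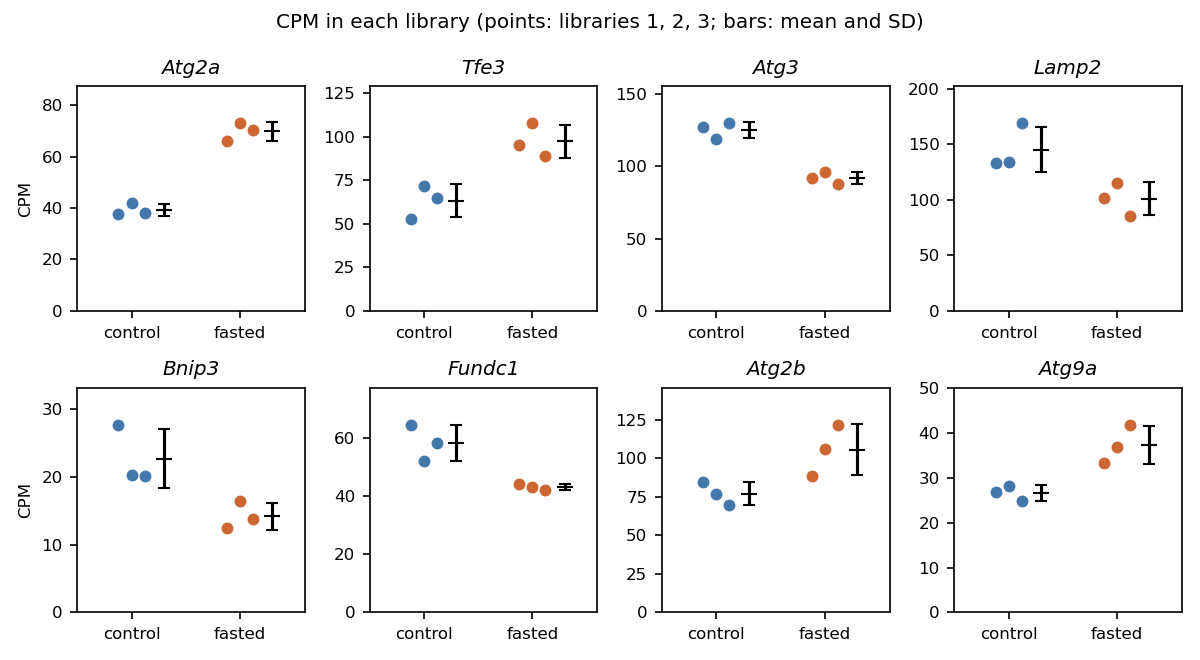
CPM (y axis, from 0) in each library for the 8 tested genes with the smallest unadjusted p; points are libraries 1, 2 and 3 of each group and bars the mean and SD. Control and fasted points do not overlap in any panel, with fasted higher for Atg2a, Tfe3, Atg2b and Atg9a and lower for Atg3, Lamp2, Bnip3 and Fundc1.

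The conjugation machinery held 10 tested genes and Atg16l2, a paralog of Atg16l1 that was not tested. Of the 10, 3 had estimates higher in fasted libraries and 7 lower. Atg3, the E2-like enzyme that hands ATG8 proteins to the membrane lipid, lies on the plus strand at chr16:45158785-45188538. It had 127, 119 and 129.6 CPM in control and 92.2, 96.0 and 87.8 CPM in fasted libraries. The fasted libraries lay below all control libraries with little spread in either group, and the estimate was -0.44 on the log2 scale (SE 0.12, edgeR adjusted p = 0.143), or -0.96 in the fit of all genes (adjusted p = 0.0339). With DESeq2 the adjusted p of Atg3 was 0.0343. Atg12, the ubiquitin-like protein joined to Atg5, had 81.6, 105 and 118 CPM in control and 75.8, 76.8 and 76.9 CPM in fasted libraries. The control libraries spread widely above 3 close fasted values, and the estimate was -0.41 on the log2 scale (SE 0.16, edgeR adjusted p = 0.206), or -0.90 in the fit of all genes (adjusted p = 0.0356).

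The other conjugation genes had estimates between -0.42 and 0.15. Atg7, the E1-like enzyme that activates both Atg12 and the ATG8 proteins, was at 0.15, Atg5 at 0.08 and Atg16l1, which places the Atg12-Atg5 conjugate on the membrane, at -0.0040. Atg10, the E2-like enzyme for Atg12, was at -0.42 with a 95% interval from -1.02 to 0.18. The 4 proteases that trim and release ATG8 proteins were at -0.27 (Atg4a), 0.09 (Atg4b), -0.28 (Atg4c) and -0.07 (Atg4d). None of these 8 genes had an unadjusted p under 0.05.

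The ATG8 family, whose members coat the autophagosome and bind cargo receptors, had overlapping groups for all 5 genes. Gabarap had 135, 167 and 147 CPM in control and 146, 159 and 129 CPM in fasted libraries. Gabarapl1 had 116, 159 and 156 CPM against 147, 189 and 133 CPM. Map1lc3b, the gene of the LC3B protein used to follow autophagy, had 321, 359 and 371 CPM in control and 376, 422 and 289 CPM in fasted libraries. The fasted values of these 3 abundant genes lay among or around the control values. Gabarapl2 had 33.8, 42.6 and 38.1 CPM against 37.6, 42.2 and 39.8 CPM. Map1lc3a, the lowest of the family in counts, had 10.3, 17.5 and 24.0 CPM in control and 30.9, 21.04 and 15.6 CPM in fasted libraries. The spread of Map1lc3a within each group was wider than the distance between the groups. The log2 fold changes were -0.05 for Gabarap, 0.12 for Gabarapl1, 0.05 for Map1lc3b, 0.07 for Gabarapl2 and 0.39 for Map1lc3a, and the widest 95% interval, that of Map1lc3a, ran from -0.41 to 1.18. For Map1lc3b the interval ran from -0.30 to 0.40. Gabarapl1 overlaps 1700101I11Rik on the other strand over 28.3% of its exonic length.

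Per length, the makeup of the family was close in the 2 groups. Gabarap gave 35.6% ± 2.29 of the summed ATG8 level in control and 33.1% ± 1.41 in fasted libraries, Gabarapl1 31.0% ± 1.503 and 32.5% ± 2.35, and Map1lc3b 20.4% ± 1.35 and 19.9% ± 1.09 (SD, n = 3 each). Gabarapl2 and Map1lc3a each gave under 10% in both groups by their means.

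The 3 general cargo receptors had estimates above 0 and did not pass. Sqstm1 had 202, 372 and 602 CPM in control and 616, 946 and 363 CPM in fasted libraries. Its libraries differed about as much within a group as between groups, and the log2 fold change of 0.71 had a 95% interval from -0.50 to 1.92. That estimate for Sqstm1 was 0.40 without control library 1, 0.29 without fasted library 2 and 1.15 without control library 3. Beside it, the summed granulocyte and monocyte markers ran in the same order as Sqstm1 over the 3 control libraries but not over the 3 fasted ones. Sqstm1 lies on the minus strand at chr11:50199366-50210827, with 17.3% of its exonic length under Mrnip on the other strand. Nbr1, a receptor related to p62, had 66.9, 71.2 and 50.9 CPM against 77.7, 81.6 and 73.9 CPM, without overlap, and a log2 fold change of 0.30 (edgeR adjusted p = 0.316). Optn, the receptor optineurin of ubiquitin-marked mitochondria, had 177, 116 and 83.7 CPM in control and 142, 141 and 166 CPM in fasted libraries. The highest and the lowest value of Optn were both control libraries.

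The 3 mitophagy receptors, which sit in the outer mitochondrial membrane and bind ATG8 proteins directly, had estimates below 0. Bnip3, a receptor known for its induction by low oxygen, had 27.6, 20.3 and 20.1 CPM in control and 12.4, 16.4 and 13.7 CPM in fasted libraries. Each fasted library was below each control library, at means of 14.2 ± 2.02 and 22.7 ± 4.29 CPM (SD, n = 3 each). The fitted value in fasted libraries was 0.626 of that in control, a log2 fold change of -0.68 (SE 0.23, unadjusted p = 0.0144, edgeR adjusted p = 0.170), the lowest of the 38 genes. In the fit of all genes it was -1.21 (adjusted p = 0.0333). Bnip3 lies on the minus strand at chr7:138890836-138909519, where Gm45507 on the other strand overlaps 22.3% of its exonic length. The background was 5.05% of its counts in control and 17.5% in fasted libraries.

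Fundc1, a receptor known from mitophagy under low oxygen, lies on the minus strand at chrX:17556564-17572325. It had 64.4, 52.0 and 58.3 CPM in control and 44.1, 43.0 and 42.1 CPM in fasted libraries. The fasted values were close together and below all control values, with a log2 fold change of -0.44 (SE 0.15, edgeR adjusted p = 0.172), or -0.96 in the fit of all genes (adjusted p = 0.0363). Bnip3l had 151, 159 and 139 CPM in control and 151, 147 and 134 CPM in fasted libraries. The groups overlapped, and the log2 fold change of -0.05 had a 95% interval from -0.32 to 0.22. Bnip3l has an annotated processed pseudogene, and how the reads they share were assigned is not given in the sources used here. Per length, Bnip3l made up 53.2% ± 3.95 of the 3 receptors in control and 61.9% ± 1.51 in fasted libraries, and Bnip3 13.1% ± 1.92 and 8.77% ± 1.58 (SD, n = 3 each). The 3 fasted shares of Bnip3l were above all control shares, and those of Bnip3 below them.

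Tfe3 and Tfeb encode related transcription factors that enter the nucleus when nutrients are short and bind a motif built on CACGTG in genes of autophagy and the lysosome. Tfe3, on the plus strand at chrX:7762560-7775202, had 52.8, 71.4 and 65.0 CPM in control and 95.4, 108 and 88.9 CPM in fasted libraries. All 3 fasted values were above the control values, at means of 97.3 ± 9.43 and 63.1 ± 9.46 CPM (SD, n = 3 each). Tfe3 was 1.54-fold higher, a log2 fold change of 0.63 (SE 0.15, unadjusted p = 0.00268, edgeR adjusted p = 0.131), and was at 0.13 in the fit of all genes (adjusted p = 0.714); with DESeq2 the adjusted p of Tfe3 was 0.0318. Tfeb had 4.78 to 6.01 CPM in control and 9.30 to 10.9 CPM in fasted libraries. The background amounted to 56.5% of the Tfeb counts in control and 62.2% in fasted libraries, and after subtraction its levels overlapped, at 0.316 to 0.522 and 0.404 to 0.795 CPM per kilobase.

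The promoters of 4 genes are shown because they span what these genes hold of that motif: Lamp1 with the most copies, Atg3 and Bnip3, which had log2 fold changes below 0, and Atg2a, which had the highest log2 fold change of the 38. Each is the window from 250 bases before to 50 after the start in RefSeq's annotation of GRCm38.p6, written 5′ to 3′ on the gene's strand, with CACGTG in capitals. They are chr8:13158911-13159210 (plus strand) for Lamp1, chr16:45158579-45158878 (plus) for Atg3, chr7:138909457-138909756 (minus) for Bnip3 and chr19:6241418-6241717 (plus) for Atg2a.
Lamp1: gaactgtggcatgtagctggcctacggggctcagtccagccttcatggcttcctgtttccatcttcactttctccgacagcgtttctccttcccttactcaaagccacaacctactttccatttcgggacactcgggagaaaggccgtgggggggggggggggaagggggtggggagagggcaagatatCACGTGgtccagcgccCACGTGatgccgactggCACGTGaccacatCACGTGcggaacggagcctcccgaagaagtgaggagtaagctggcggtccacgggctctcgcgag
Atg3: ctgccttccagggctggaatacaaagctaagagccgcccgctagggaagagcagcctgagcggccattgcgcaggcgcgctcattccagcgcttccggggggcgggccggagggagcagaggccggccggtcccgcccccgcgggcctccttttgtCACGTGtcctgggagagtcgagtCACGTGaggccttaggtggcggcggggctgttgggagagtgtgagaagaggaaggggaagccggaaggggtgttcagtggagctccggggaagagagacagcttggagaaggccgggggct
Bnip3: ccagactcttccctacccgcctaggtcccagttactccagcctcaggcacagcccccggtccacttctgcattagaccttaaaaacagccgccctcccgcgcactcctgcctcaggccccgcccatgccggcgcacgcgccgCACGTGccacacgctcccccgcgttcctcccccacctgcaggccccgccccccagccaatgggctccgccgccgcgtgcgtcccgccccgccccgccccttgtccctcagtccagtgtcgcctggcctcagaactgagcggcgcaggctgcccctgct
Atg2a: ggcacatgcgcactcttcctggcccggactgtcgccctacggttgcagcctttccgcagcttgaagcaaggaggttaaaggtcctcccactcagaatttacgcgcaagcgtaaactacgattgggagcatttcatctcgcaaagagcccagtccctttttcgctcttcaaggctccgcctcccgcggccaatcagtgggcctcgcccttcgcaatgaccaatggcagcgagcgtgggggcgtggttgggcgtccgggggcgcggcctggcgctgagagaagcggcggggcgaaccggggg
CACGTG reads the same on both strands. Lamp1 held 4 copies, at bases 190, 206, 223 and 236 of the window, Atg3 held 2, at bases 157 and 180, Bnip3 held 1 at base 143 and Atg2a none. Only the first window listed for each gene was searched, and 5 of the 41 genes had more than 1, so other starts were not covered. Of the 41 genes 34 had a window, and 6 of these (17.6%) held CACGTG: Atg14, Atg3, Atg5, Atg7, Bnip3 and Lamp1. Over the first windows of all 27025 genes with one, 7.24% held it. The windows of Atg7 (chr6:114670846-114671145) and Atg14 (chr14:47568385-47568684) lie wholly inside the genes as annotated in GENCODE M21. Those spans are chr6:114643097-114860614 and chr14:47540893-47570649, so these windows do not cover the outermost annotated start. The longer TCACGTGA, which contains CACGTG, was in the window of Atg3 alone (2.94% of 34), against 1.01% of the 27025. A match describes the letters of the window and not a site in use. The 6 genes with the motif had log2 fold changes of 0.31, -0.44, 0.08, 0.15, -0.68 and -0.18 in the order named.

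Both lysosomal membrane proteins had estimates below 0. Lamp2, which with Lamp1 coats the inner face of the lysosomal membrane and takes part in fusion with autophagosomes, lies on the minus strand at chrX:38401357-38456454. It had 133, 134 and 169 CPM in control and 102, 116 and 85.8 CPM in fasted libraries. The groups did not overlap, and the log2 fold change was -0.52 (SE 0.16, unadjusted p = 0.00851, edgeR adjusted p = 0.154), or -1.02 in the fit of all genes (adjusted p = 0.0333). Lamp1 had 216 to 265 CPM in control and 207 to 233 CPM in fasted libraries, with overlap, and a log2 fold change of -0.18 with a 95% interval from -0.46 to 0.11.

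Beyond these genes, 95 others of the same pathways were listed in 5 groups by function, and 84 of them were tested. None passed edgeR's adjusted test. Of the 84 estimates 29 were higher in fasted libraries and 55 lower, where 47.7% of all genes tested were lower. At an unadjusted p under 0.05 there were 7 higher and 15 lower, beside 11.5% higher and 8.3% lower of all genes tested. DESeq2 called 6 of the 84, and 502 of all 10635 genes. The vacuolar ATPase, the proton pump that acidifies the lysosome, had 1 subunit with an estimate above 0 and 15 below, with a median log2 fold change of -0.20. Of its 16 subunits 13 lay at least 20 times above background, where the median of all genes tested was -0.11 (20 to 50 times, 31.5% of genes higher) and -0.17 (above 50 times, 25.0% higher). Its 6 subunits with an unadjusted p under 0.05 were all lower, among them Atp6v1g1 at -0.50, Atp6v0b at -0.48, Atp6ap2, an accessory subunit, at -0.58 and Atp6v1b2 at -0.35. Atp6v1g1 had 120.6, 102 and 102 CPM in control and 73.9, 85.8 and 70.4 CPM in fasted libraries, with no overlap. The fit of all genes called 6 of the 16 subunits lower and 17 of the 95 genes in all, 16 lower and 1 higher, where it called 4.97% of all its genes and 12.9% of the genes at least 5 times above background lower. The 1 higher was Calcoco2, which was 1.48 times above background and not in the restricted fit.

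The lysosomal hydrolases and other lysosomal proteins had 6 tested genes with estimates above 0 and 18 below, with a median of -0.11. Of these 24 genes 14 lay at least 20 times above background. There 31.5% (20 to 50 times) and 25.0% (above 50 times) of all genes tested were higher. Cd63, a tetraspanin of late endosomes, was lowest, at 95.2, 114 and 184 CPM in control and 75.1, 63.4 and 53.0 CPM in fasted libraries. The groups did not overlap, and the estimate was -1.04 on the log2 scale (SE 0.25, edgeR adjusted p = 0.131). The summed granulocyte and monocyte markers ran in the same order as Cd63 over the control and over the fasted libraries. Whether such cells had a part in the Cd63 values was not tested. Ctsc, the protease cathepsin C, was at -0.68, while Clcn7, the lysosomal chloride exchanger, was at 0.64 and Cln3 at 0.51. The summed markers ran in the same order as Ctsc over the fasted libraries but not over the control ones. In the other autophagy machinery 14 estimates were above 0 and 7 below. Vamp8, a SNARE of autophagosome fusion, was at -0.41 and Rab7, the late endosomal GTPase, at -0.33, while Epg5, a tether, was at 0.50 and Zfyve1 at 0.41. Of the other cargo receptors Calcoco1 was at 0.42, Ncoa4, the receptor of ferritin, at -0.28, Tax1bp1 at -0.34 and Wdfy3 at 0.19. Of the other mitophagy genes Dnm1l, the fission GTPase, was at -0.44, Hif1a at -0.46, Nipsnap2 at -0.20 and Bcl2l13, a further receptor, at 0.33.

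**Figure D5:**
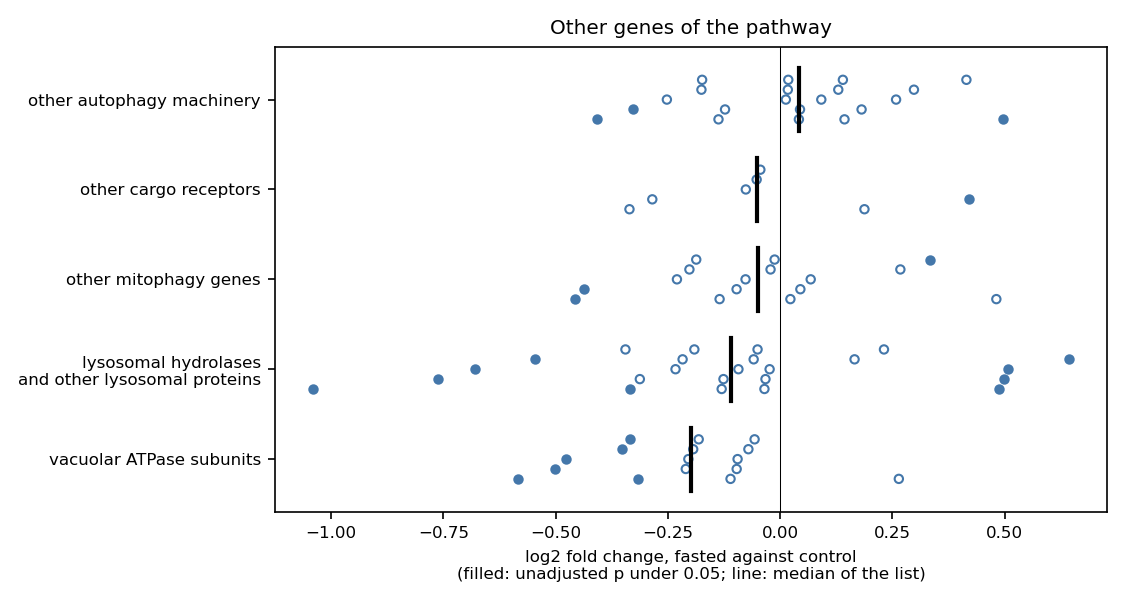
Log2 fold change (fasted against control, x axis) of each of the 84 tested genes in 5 other lists of the pathways; filled points have an unadjusted p under 0.05 and the black line is the median of the list. In the vacuolar ATPase list 15 of 16 points lie below 0, while the other autophagy machinery lies on both sides with a median of 0.04.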

How the data were processed

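Bulk RNA-seq of 3 control and 3 fasted libraries was analysed from the gene counts that the authors deposited, whole numbers per gene with no normalization and 0 entries that name no gene. Per the submitters' processing notes, HISAT2 2.2.1, featureCounts 2.0.1 and GRCm38 were used; the annotation release, strand setting and filters are not given in the sources used here. Gene symbols and coordinates came from GENCODE M21 on GRCm38, which matched 54435 of 55487 gene identifiers with their version and 55227 without it; of the 41 genes, 40 had the same version (Atg9a differed) and all 41 the same exonic length as in the table. All columns of the table were used.

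The background rate of each library was its count per kilobase over 1422 odorant and vomeronasal receptor genes. Counts were tested in R 4.3.3 with edgeR 4.0.16 (TMM factors, robust quasi-likelihood test, no covariate, two-sided, Benjamini-Hochberg adjustment, threshold 0.05) on genes that passed filterByExpr with a mean count of at least 5 times the background. CPM values use the same library sizes, and 95% intervals come from that fit. Alternatives were other background multiples (2, 10), no such filter, other scaling, background subtraction, DESeq2 1.42.0, limma-voom (limma 3.58.1), each library left out, and the replicate number as a block. The scripts were tested on simulated data.

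The 41 genes, the pathway and marker lists and the tests were chosen with earlier results of these data known. All 41 genes are named by role. Values in every library are given for genes called in either fit, for the 8 tested genes with the smallest unadjusted p and for the ATG8 family, the cargo receptors and the mitophagy receptors, with Ulk2, Atp6v1g1 and Cd63 added after their values were seen. Of each other pathway list up to 4 genes with the smallest unadjusted p are named; Calcoco2 was added after its value was seen.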

Additional observations from a re-analysis of the deposited data

How the results depend on the processing

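The log2 fold changes of 58 named genes and the counts were recomputed under each alternative. With no background filter 1813 of 36508 genes passed, 6 of the 41 and 17 other pathway genes, with a median of -0.43 over the 41. At 2 times background 1614 of 20618 genes passed, 6 of the 40 tested and 17 others, with a median of -0.26. With factors from genes at least 5 times above background and all genes tested, 5245 of 36508 genes passed, 4990 higher and 255 lower. Among them were 4 of the 41 (2 higher, 2 lower) and 11 other pathway genes. With DESeq2 502 of 10635 genes passed, 3 of the 38 tested and 6 others. In the restricted fit 2 genes had an edgeR adjusted p under 0.1. At 10 times background 8 of the 27 tested had an unadjusted p under 0.05. Leaving out each library in turn gave 0 to 3 genes called, 0 of the 38 tested, 7 to 11 of the 38 with an unadjusted p under 0.05 and medians from -0.016 to 0.0996. The cause of these differences was not tested. For the fits at 10 times background and with a library left out, the share of all genes at that unadjusted p is not given. The counts of genes at that p in these fits therefore have no measure beside them.

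Estimates changed sign with no background filter for Ulk2 (-0.014), Atg13 (-0.52), Atg14 (-0.20), Pik3c3 (-0.28), Uvrag (-0.050), Atg2b (-0.080), Atg9a (-0.041), Wipi1 (-0.029), Wipi2 (-0.34), Atg4b (-0.43), Atg5 (-0.46), Atg7 (-0.37), Map1lc3a (-0.077), Map1lc3b (-0.45), Gabarapl1 (-0.36), Gabarapl2 (-0.44), Nbr1 (-0.23), Optn (-0.32), Cln3 (-0.015), Epg5 (-0.030), Zfyve1 (-0.13), Calcoco1 (-0.11), Wdfy3 (-0.36) and Bcl2l13 (-0.18). At 2 times background they did for Atg13 (-0.34), Atg14 (-0.019), Pik3c3 (-0.095), Wipi2 (-0.17), Atg4b (-0.25), Atg5 (-0.27), Atg7 (-0.18), Map1lc3b (-0.28), Gabarapl1 (-0.20), Gabarapl2 (-0.27), Nbr1 (-0.043), Optn (-0.11), Wdfy3 (-0.17) and Bcl2l13 (-0.0056), and at 10 times for Atg4d (0.013), Gabarap (0.027) and Bnip3l (0.027). With background subtracted Gabarap was 0.020 and Bnip3l 0.0067. Atg13 was -0.019 with RLE factors, -0.030 with library totals and -0.019 with DESeq2, and Atg16l1 0.0026 with limma-voom. Leaving out each library turned Atg13 (-0.088 to 0.10), Atg16l1 (-0.083 to 0.087), Atg4c (-0.51 to 0.11), Atg4d (-0.17 to 0.019), Atg5 (-0.12 to 0.22), Gabarap (-0.15 to 0.025), Gabarapl1 (-0.063 to 0.23), Gabarapl2 (-0.015 to 0.12), Map1lc3b (-0.10 to 0.19) and Pik3r4 (-0.25 to 0.049). It moved others by over 1.5 times with the sign kept: Ulk1 (0.25 to 0.84), Atg101 (-0.39 to -0.045), Atg14 (0.16 to 0.37), Pik3c3 (0.11 to 0.33), Wipi2 (0.069 to 0.23), Atg4a (-0.45 to -0.15), Atg4b (0.027 to 0.11), Atg7 (0.074 to 0.22), Map1lc3a (0.090 to 0.68), Nbr1 (0.15 to 0.36), Optn (0.00063 to 0.58), Sqstm1 (0.29 to 1.15) and Bnip3l (-0.12 to -0.0031). Among the other pathway genes it did so for Zfyve1 (0.26 to 0.51), Ncoa4 (-0.38 to -0.18), Tax1bp1 (-0.51 to -0.12), Wdfy3 (0.061 to 0.31), Atp6ap2 (-0.79 to -0.38) and Atp6v1b2 (-0.47 to -0.23).

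The replicate numbers are shared between the groups, but same-numbered libraries did not deviate together: their correlations over genes were -0.18, 0.14 and -0.37. With the replicate number as a block 7 of the 38 tested genes had an unadjusted p under 0.05, against 13 without it, and 0 passed the adjusted test. Without the block 19.8% of all genes tested reached that unadjusted p. With the block that share is not given, so the 7 have no measure beside them.

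Chosen after seeing the data, each library was also left out of the fit of all genes. It then called 5409 genes and 12 of the 41 without control library 3, 2074 and 8 without fasted library 2, 1299 and 6 without control library 1, 191 and 0 without control library 2, 148 and 0 without fasted library 1, and 1 and 0 without fasted library 3; with the block it called 146 genes and 0 of the 41.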
